A study of Ranunculus trichophyllus with 6 samples.

Results

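The transcripts described here are those that the authors collected under leaf morphology in their deposited table of leaf GO terms and did not also place under leaf polarity, meristem development, cell expansion or cell growth. They were chosen by identifier alone, with no measured value in the rule. The leaf morphology sheet holds 176 transcripts, of which 30 also stand in the other 4 sheets, leaving 146 members of the 210686 transcripts of the assembly. The members come from 110 Trinity genes (groups of transcripts that the assembler took for the same locus) and carry 95 *Arabidopsis thaliana* gene names. A name is that of the best *Arabidopsis* protein match, with a median of 63% identical residues (range 25 to 97), so each is a homolog and not a proven ortholog.

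The RNA came from shoots of *Ranunculus trichophyllus*, a water crowfoot that makes leaves both in air and under water, grown at 22°C under 16 h of light. Terrestrial plants stayed in air, and aquatic plants were seedlings soaked in water from 1 week of age. No transgene, mutant or added hormone is part of these groups. Each condition has 3 libraries: the labels give leaf at 14 days for replicate 1, and leaf plus shoot apical meristem at 11 days for the others. Age and tissue therefore change together between the harvests and cannot be told apart, and the study's methods give a single harvest at a later age. By these ages the time under water of the aquatic plants changes with them too. The labels do not say whether libraries came from separate plants or cultures, so the p-values measure the spread between these libraries only.

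Leaf form in *Arabidopsis* is set while the leaf is a primordium on the flank of the shoot apex. Homeodomain, TCP, YABBY and auxin response factors decide where the blade grows and where growth stops, Polycomb proteins and small RNAs keep apex genes off, and later cell division, cell expansion, cell shape, hairs and stomata shape the surface. In water crowfoots and other amphibious plants the submerged leaf is narrow and lacks stomata. The GO term leaf morphogenesis also holds many chloroplast genes, placed there by computation and not by a leaf phenotype.

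That mixture is visible in the members. Of the 146, 119 carry leaf morphogenesis directly in the annotation table, 33 of them (21 names) from mutant or genetic evidence and 86 (60 names) only from reviewed computational analysis. Another 8 were described without that term, and 19 members of 7 names (SVP, FMA, AGO4, MSI1, APC6, PSBO2 and CRB) had no description in the table as used here and were named from the leaf sheet. A chloroplast location is given for 68 members, 53.5% of the 127 described, against 17.4% of all transcripts with an *Arabidopsis* match. By role, 32 members are transcription factors, 16 act on chromatin, RNA or the genome, 9 in cell shape, hormone or signalling, 10 in cell division or protein turnover, 9 in wall or carbohydrate metabolism, 4 in the cytosolic ribosome, 11 in chlorophyll and tetrapyrrole metabolism, 9 in plastid isoprenoid and pigment synthesis and 35 in photosynthesis or plastid gene expression. The remaining 11 have no role used here. Roles were assigned here, and SSL4, a strictosidine synthase-like protein, was counted with the wall and carbohydrate members without a role there being shown.

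The libraries held 25345718 to 33978729 counted fragments. Aquatic replicate 1 stood apart: 3 transcripts took 36.2% of its counts, against 0.287 to 0.987% elsewhere, and its members took 1.19% of counts, against 2.07 to 2.68%. Levels are therefore given as scaled FPKM, the deposited FPKM (fragments per kilobase of transcript, set to a common library total) divided by a factor for library composition, 0.705 for that library and 1.03 to 1.08 for the others. Aquatic replicate 2 held counts for 1636 transcripts with a fungal match, 0.583% of its counts, against 54 to 161 such transcripts and 0.0656 to 0.151% elsewhere. Among markers of other tissues, apex and dividing cells (6 of 10 measured) summed to 33.5, 377 and 516 CPM (counts scaled to a common library total) in terrestrial and 20.7, 243 and 229 CPM in aquatic replicates 1 to 3, and STM had no count in either 14-day library. Xylem markers (4 of 4) summed to 45.4, 81.5 and 114 CPM in terrestrial and 10.4, 31.7 and 40.7 CPM in aquatic replicates. Most of that sum was XCP1, with 32.7, 66.4 and 96.8 CPM in terrestrial and 0, 20.4 and 28.2 CPM in aquatic replicates. The xylem markers did not move together. Log2 fold changes (aquatic over terrestrial) were -2.78 for XCP1, -1.78 for IRX5, 0.41 for IRX3 and 0.05 for VND7. Of these markers, KNOLLE, CLV1, AUR1 and CDKB2;1 passed the test as lower in aquatic plants (with the replicate number as a block, CLV1 alone, adjusted p = 0.0464), and no xylem marker passed. The part of these tissues in the results was not tested, and in bulk RNA fewer cells of a type and less RNA per cell cannot be told apart.

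The question of the comparison is which leaf form homologs differ between leaves made under water and in air. Of the 146 members, 140 held enough counts to be tested, and aquatic plants had 3 of them higher and 19 lower, with 118 not past the threshold of 0.05 on the adjusted p of edgeR's quasi-likelihood test. Over all 58039 transcripts tested, 6.42% were higher and 4.04% lower, and over the 16085 with an *Arabidopsis* match 7.52% were higher and 6.21% lower, while the members gave 2.14% and 13.6%. The lower members lost most from ZFP8, SSL4, GNC, FMA, BLH2, PORB, GSA2 and RPS13A, with log2 fold changes (aquatic over terrestrial) of -5.08 to -2.32, and the higher ones were a pair of SVP isoforms and a second SSL4 transcript. The median log2 fold change was -0.26 over the members tested, -0.03 over all transcripts tested and -0.08 over those with an *Arabidopsis* match, and 99 of the 140 members had a negative value.

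Levels in CPM were also compared library by library. The 3 aquatic libraries lay below the 3 terrestrial ones for 29 members and above them for 10, where 10.8% and 11.3% of all transcripts tested did. Compared within its own harvest, the aquatic level was below the terrestrial one with no overlap for 64 members (45.7%, in 51 of 104 Trinity genes), against 22.5% of all transcripts tested and 30.4% of those with an *Arabidopsis* match. It was above with no overlap for 14 members (10.0%), against 20.1% and 22.0%. All 19 lower calls and all 3 higher ones were ordered in this way within each harvest, and 13 of the 19 also across harvests. The calls were made on these same libraries with a harvest term, so this order is no separate support for them.

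**Figure D1:**
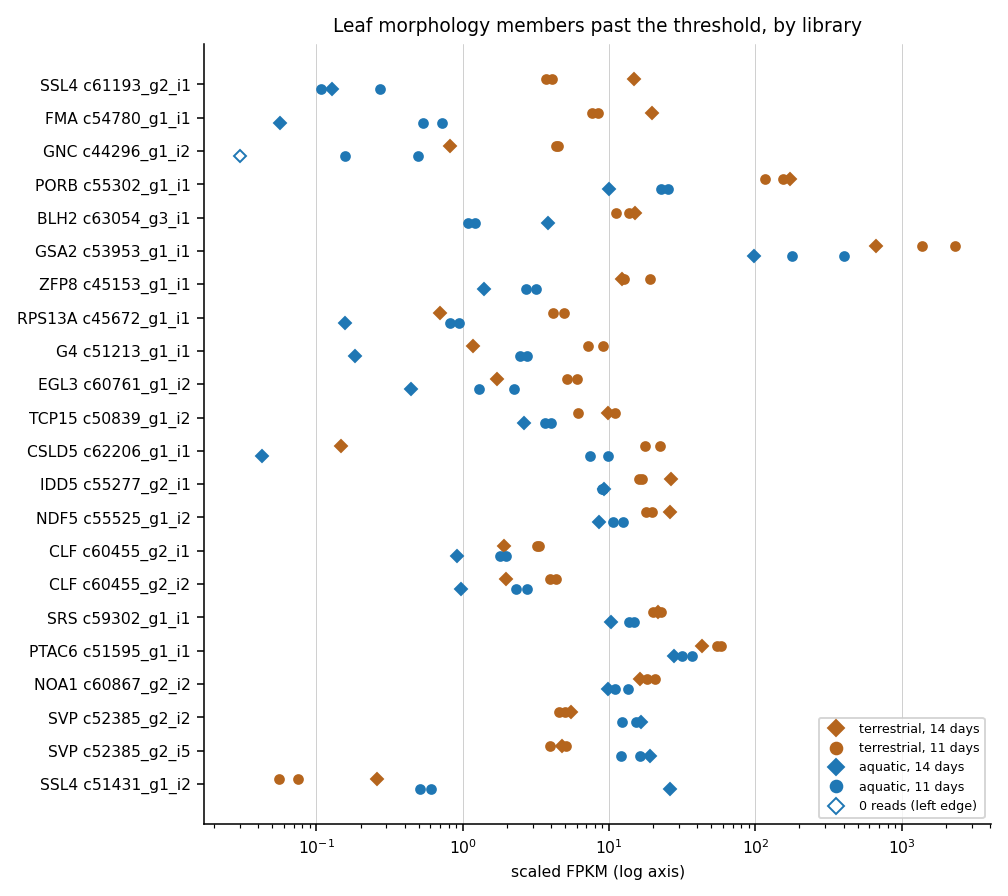
Scaled FPKM (log axis) of the 22 members past the threshold in each of the 6 libraries, ordered by log2 fold change, with diamonds for the 14-day and circles for the 11-day libraries and an open symbol for 0 reads. In every row the aquatic points lie on the same side of the terrestrial points of their own harvest, and the SSL4 pair (top and bottom rows) runs in opposite directions.

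How many members pass depends on the libraries kept. With the replicate number as a block, 2 were higher and 9 lower (4.07% and 1.65% of all transcripts), all among the 22. Leaving out terrestrial replicate 1 gave 6 higher and 15 lower (6.31% and 4.14% of all). Leaving out terrestrial replicate 2 gave 1 and 10 (2.62% and 1.06%), and leaving out terrestrial replicate 3 gave 2 and 4 (1.90% and 0.683%). The aquatic libraries acted alike, with 8 and 15 without replicate 1 (6.59% and 4.42%), 2 and 6 without replicate 2 (2.17% and 0.872%) and 4 and 10 without replicate 3 (5.32% and 2.08%). The 11-day libraries alone gave 8 and 15 (6.92% and 4.62%), and DESeq2 gave 6 and 30 (9.16% and 7.59%). No called member changed direction in any of 16 alternatives. The fits without either replicate 1 keep a harvest term. The other replicate 1, then alone in its harvest, adds nothing to the aquatic effect. These fits therefore give nearly the same comparison as the 11-day libraries alone. The 3 fits are not separate checks among the 16. Of the 11 kept by the block, ZFP8 was called in all 16, and the SSL4 transcript c61193_g2_i1 without any single library. Without terrestrial replicate 3 the call ended for GNC (adjusted p = 0.0569), GSA2 (0.0602), RPS13A (0.0512), EGL3 (0.0754), SVP c52385_g2_i2 (0.0513) and G4 (0.0698). It ended without terrestrial replicate 2 for EGL3 (0.0526) and SVP c52385_g2_i5 (0.0511), and without aquatic replicate 2 for BLH2 (0.0533), PORB (0.0521) and G4 (0.0530). A fit with no harvest term ended 17 of the 22 calls, among them BLH2 (0.0742), EGL3 (0.334), GNC (0.163), GSA2 (0.146), RPS13A (0.288) and G4 (0.542). That fit called 746 of all 58039 transcripts higher and 294 lower. Over the 16 alternatives the adjusted p ran from 4.1e-06 to 0.334 for EGL3, 1.7e-08 to 0.163 for GNC, 1.6e-08 to 0.146 for GSA2 and 1.2e-06 to 0.542 for G4.

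**Figure D2:**
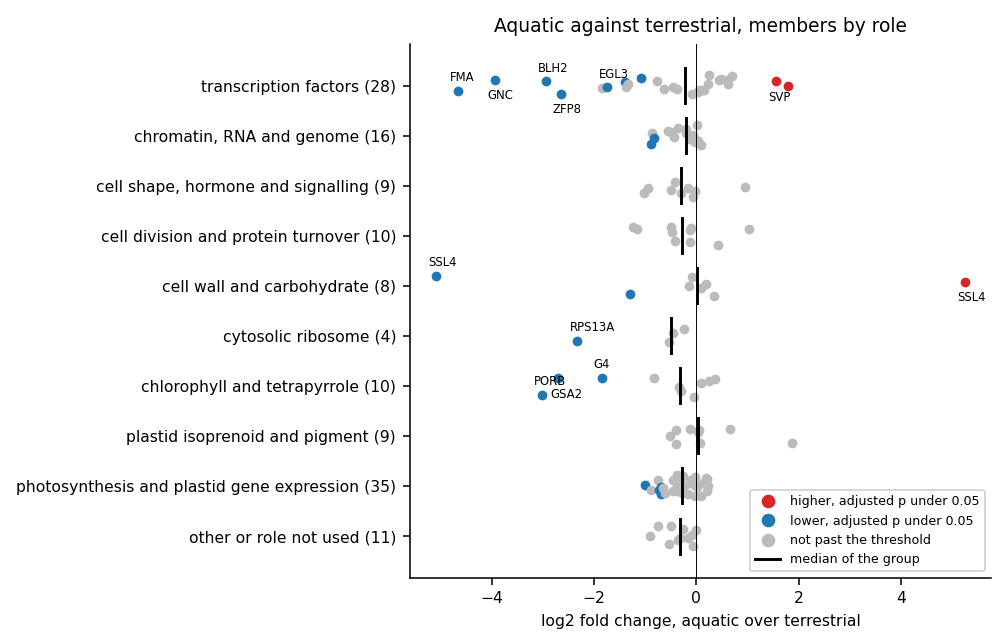
Log2 fold change of aquatic over terrestrial plants for the 140 members tested, by role, with the number tested in brackets, points coloured by the test (adjusted p under 0.05) and a bar at the median of each group. The transcription factors spread from -4.66 to 1.78, the chlorophyll group holds 3 lower members, and the 35 photosynthesis and plastid gene expression members stay between -1.0 and 0.23.

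Transcription factors gave the most calls, 2 higher and 7 lower of 28 tested. FMA is the homolog of FAMA, a bHLH factor that in *Arabidopsis* drives the last division and fate of guard cells. It had 19.5, 7.66 and 8.44 scaled FPKM in the terrestrial libraries, given by replicate here and throughout, and 0.0567, 0.720 and 0.536 in the aquatic ones, the lowest value resting on 2 reads. The aquatic libraries were all below the terrestrial ones, with -4.66 ± 0.81 on the log2 scale (SE, adjusted p = 0.0222). The adjusted p was 0.0636 with the replicate block and between 5.6e-08 and 0.0885 over the 16 alternatives. The log2 fold change was -3.68 without terrestrial replicate 1 and -3.65 without aquatic replicate 1. Both of these fits compare the conditions in replicates 2 and 3 only, so they are not separate checks. The FMA call ended without terrestrial replicate 2 (0.0634) or 3 (0.0810) and without aquatic replicate 2 (0.0706) or 3 (0.0561). Of 4 guard cell markers, FAMA included, MYB60 and BLUS1 were measured beside it and summed to 87.3, 24.2 and 21.9 CPM in terrestrial and 0.450, 4.68 and 5.67 CPM in aquatic replicates. Like FMA they were highest in terrestrial replicate 1 and lowest in aquatic replicate 1, and their part in the FMA value was not tested.

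GNC is a GATA factor that promotes chlorophyll synthesis and chloroplast growth in *Arabidopsis*. Its transcript had 0.814, 4.36 and 4.45 scaled FPKM in terrestrial and 0, 0.496 and 0.156 in aquatic replicates, with 0 to 99 reads behind each value. It fell by 3.93 on the log2 scale (SE 0.52, adjusted p = 0.0106), with no overlap between conditions, and with a log2 fold change of -4.94 without aquatic replicate 2. The other isoform of its Trinity gene, not a member, had 55, 358 and 445 reads in terrestrial and 0, 22 and 18 reads in aquatic replicates and fell by 4.62.

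BLH2 is a BEL1-like homeodomain factor that, with BLH4, holds back KNOX genes at the leaf margin of *Arabidopsis*. Transcript c63054_g3_i1 had 14.9, 13.7 and 11.2 scaled FPKM in terrestrial and 3.84, 1.21 and 1.08 in aquatic replicates, and fell by 2.94 on the log2 scale (SE 0.36, adjusted p = 0.00878), with every aquatic library below every terrestrial one. The other BLH2 member, from Trinity gene c59177_g1, had 27.4, 17.1 and 19.8 scaled FPKM in terrestrial and 18.6, 12.9 and 10.5 in aquatic replicates. Its value overlapped between conditions through aquatic replicate 1 and did not pass (log2 fold change -0.62 ± 0.16, SE, adjusted p = 0.0602). Summed over all transcripts with this match, BLH2 fell by 1.02 (SE 0.14, adjusted p = 0.0161).

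A pair of trichome factors was lower. ZFP8, a zinc finger protein that promotes leaf hairs under cytokinin and gibberellin in *Arabidopsis*, had 12.2, 12.7 and 19.2 scaled FPKM in terrestrial and 1.39, 3.14 and 2.69 in aquatic replicates. It fell by 2.65 (SE 0.27, adjusted p = 0.00574), the lowest adjusted p of the 140, and the conditions did not overlap. A second ZFP8 transcript was too low to test, at 0.13, 0.407 and 0.409 scaled FPKM in terrestrial and 0, 1.24 and 1.66 in aquatic replicates. EGL3, a bHLH factor of hair fate and anthocyanin synthesis, had 1.72, 5.12 and 6.0 scaled FPKM in terrestrial and 0.440, 2.25 and 1.30 in aquatic replicates. Its conditions overlapped across harvests and were apart within each harvest, with a log2 fold change of -1.75 ± 0.26 (SE, adjusted p = 0.0149). GL3 and TTG1, the partners of EGL3 in the hair complex, had log2 fold changes of -0.13 (adjusted p = 0.661) and 0.64 (adjusted p = 0.136) per homolog, and GL1, GL2, TRY and CPC were not analysed here.

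TCP15, a TCP factor that limits leaf growth and endoreduplication, is the match of 4 members from 2 Trinity genes. The isoform c50839_g1_i2 had 9.86, 6.12 and 11.0 scaled FPKM in terrestrial and 2.64, 3.65 and 4.01 in aquatic replicates, without overlap, and fell by 1.40 (SE 0.30, adjusted p = 0.0385). With the replicate block its adjusted p was 0.0654 and over the 16 alternatives it lay between 0.0015 and 0.163. The call ended without any single library other than terrestrial replicate 2. Its sister isoform (log2 fold change -1.33, adjusted p = 0.0652) and the pair of the other Trinity gene (-0.37 and -0.77) did not pass, although the summed Trinity gene c50839_g1 did (-1.39, adjusted p = 0.0454). IDD5, of the INDETERMINATE DOMAIN zinc fingers, had 26.6, 16.7 and 16.0 scaled FPKM in terrestrial and 9.25, 9.02 and 8.89 in aquatic replicates, without overlap (log2 fold change -1.09 ± 0.18, SE, adjusted p = 0.0206, 0.0564 with the replicate block and 3.9e-05 to 0.103 over the alternatives). That call ended without terrestrial replicate 2 (0.0763) or 3 (0.0738) and without aquatic replicate 2 (0.0767).

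The higher factors were isoforms of a single SVP gene. SVP is a MADS box protein known in *Arabidopsis* for holding back flowering. Isoform c52385_g2_i2 had 5.51, 4.97 and 4.51 scaled FPKM in terrestrial and 16.6, 12.2 and 15.2 in aquatic replicates (log2 fold change 1.55 ± 0.18, SE, adjusted p = 0.00822). Isoform c52385_g2_i5 had 4.77, 3.94 and 5.03 in terrestrial and 19.2, 12.0 and 16.3 in aquatic replicates (1.78 ± 0.22, SE, adjusted p = 0.00953). All 5 SVP members of this Trinity gene had every aquatic library above every terrestrial one, the other 3 with log2 fold changes of 0.48 to 0.69 that did not pass, and the Trinity gene as a whole rose by 0.86 (adjusted p = 0.0195). Fragments were divided among isoforms by estimation, so the split between isoforms is uncertain. SVP from the other Trinity gene had 41.8 ± 1.71 scaled FPKM in terrestrial and 46.6 ± 10.3 in aquatic libraries (SD, n = 3; log2 fold change 0.14, adjusted p = 0.630).

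The other transcription factors did not pass. IDD2 had both of its isoforms above the terrestrial range in every aquatic library, with log2 fold changes of 0.44 and 0.60 (adjusted p = 0.148 and 0.109). The homeodomain proteins ATHB13 and HB-1 gave -0.45 to 0.23 over 4 members. ARF4 and ETT, the auxin response factors of the lower leaf side, had log2 fold changes of -1.38 and -1.85 (adjusted p = 0.268 and 0.165), each with its lowest level in aquatic replicate 1 (0.397 and 0.0284 scaled FPKM). PRS (WOX3), a homeobox factor of the leaf margin, had no read in either 14-day library and 0.841 to 0.973 scaled FPKM in the 11-day ones, with no difference past the spread between conditions (0.11 ± 0.33, SE, adjusted p = 0.868). ASL5, HB51 and YAB5 held too few reads to test, at most 1.93 scaled FPKM.

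Among members acting on chromatin, RNA and the genome, 2 of 16 were lower, both isoforms of CLF. CLF is the Polycomb methyltransferase that keeps floral and KNOX genes silent in leaves, and its mutants have curled leaves. Isoform c60455_g2_i1 had 1.92, 3.22 and 3.34 scaled FPKM in terrestrial and 0.908, 1.80 and 1.96 in aquatic replicates (log2 fold change -0.89 ± 0.17, SE, adjusted p = 0.0296). Isoform c60455_g2_i2 had 1.98, 3.97 and 4.36 in terrestrial and 0.965, 2.33 and 2.74 in aquatic replicates (-0.82 ± 0.17, SE, adjusted p = 0.0387). Terrestrial replicate 1 lay inside the aquatic range for each, and within a harvest the conditions were apart. Their adjusted p was 0.0646 and 0.0708 with the replicate block, 0.000516 to 0.379 and 0.00221 to 0.543 over the alternatives, and above the threshold without any single library. The third isoform gave -0.56 (adjusted p = 0.106), and the Trinity gene fell by 0.79 (adjusted p = 0.0243). MSI1, a histone chaperone that also sits in Polycomb complexes, gave -0.20 for both isoforms, BLI, a partner of CLF, -0.12, and HUB2, which ubiquitinates histone H2B, -0.03. The 5 members of AGO4, the Argonaute of RNA-directed DNA methylation, ran from -0.88 to 0.08, none past the threshold.

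None of the 9 members of cell shape, hormone and signalling and none of the 10 of cell division and protein turnover passed in aquatic against terrestrial plants at the adjusted threshold. AN, which keeps the leaf blade wide by acting on the cortical microtubules, had 5.88, 10.6 and 11.7 scaled FPKM in terrestrial and 3.83, 9.0 and 8.94 in aquatic replicates. The ranges overlapped, and the log2 fold change was -0.41 ± 0.15 (SE, adjusted p = 0.140). ROT3, a cytochrome P450 of brassinosteroid synthesis that lengthens leaves, had 16.9, 9.63 and 7.57 in terrestrial and 11.8, 8.25 and 6.77 in aquatic replicates, overlapping as well (-0.30 ± 0.18, SE, adjusted p = 0.338). TRN1 was named in the sheet by a locus other than that of its match, TORNADO1, and gave 0.95 (adjusted p = 0.0927). The 3 APC6 and 2 EDE1 isoforms had log2 fold changes of -1.25 to -0.43 and UBC1 of 1.02 with 79.2 to 395 scaled FPKM, while the proteasome subunits RPN8A and RPT2a gave -0.10 and -0.12.

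In the group counted as wall and carbohydrate metabolism 1 member was higher and 2 lower of 8 tested. The higher one and 1 of the lower ones were SSL4 transcripts, and the other lower one was CSLD5. SSL4 is a strictosidine synthase-like protein, and the matches here share only 34 and 35% of residues with it. Nothing in these data shows a wall or carbohydrate role for SSL4, so CSLD5 is the only call of that kind in the group. Transcript c61193_g2_i1 had 14.8, 3.70 and 4.05 scaled FPKM in terrestrial and 0.128, 0.107 and 0.273 in aquatic replicates, without overlap (log2 fold change -5.08 ± 0.58, SE, adjusted p = 0.00767). The value moved to -4.30 without terrestrial replicate 1, -4.27 without aquatic replicate 1 and -5.98 without aquatic replicate 3, and it was called each time. The fits without either replicate 1 both compare the conditions in replicates 2 and 3 only, so they are not separate checks. Another isoform of that Trinity gene, not a member, had 76, 28 and 22 reads in terrestrial replicates and 0 in each aquatic one.

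The other SSL4 transcript, c51431_g1_i2, had 0.259, 0.0555 and 0.0743 scaled FPKM in terrestrial and 25.9, 0.506 and 0.604 in aquatic replicates, from 12, 2 and 3 reads against 884, 20 and 27. Nearly all of its signal lay in aquatic replicate 1. The log2 fold change of 5.24 ± 0.82 (SE, adjusted p = 0.0166) was 3.10 without that library and 3.07 without terrestrial replicate 1. Both of these fits compare the conditions in replicates 2 and 3 only, so they are not separate checks. The adjusted p of this transcript was 0.0513 with the replicate block and 6.0e-06 to 0.488 over the alternatives. The call ended without terrestrial replicate 2 (0.0552) or aquatic replicate 2 (0.0530). Without terrestrial replicate 3 the value was 5.88. Summed over the match, SSL4 did not pass.

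CSLD5, a cellulose synthase-like protein that builds the wall of dividing cells, differed more between harvests than between conditions. It had 0.148, 17.6 and 22.4 scaled FPKM in terrestrial and 0.0426, 9.79 and 7.35 in aquatic replicates, so that the 14-day libraries were almost without it. Within each harvest the aquatic libraries were lower (log2 fold change -1.30 ± 0.22, SE, adjusted p = 0.0197, 0.0545 with the replicate block and 0.000616 to 0.820 over the alternatives). The call ended without terrestrial replicate 3 (0.0964) and without aquatic replicate 2 (0.0527) or 3 (0.0614). Of the 6 measured markers of apex and dividing cells, KNOLLE, AUR1 and CDKB2;1 were ordered in the same way. CDKB1;1 was not, with 4.46 CPM in terrestrial and 5.76 CPM in aquatic replicate 1. STM had a log2 fold change of 0.40 between conditions, and CLV1 one of only -0.36 between harvests. The part of these markers in the CSLD5 value was not tested. The 3 isoforms of GSL05, a callose synthase, gave -0.15 to 0.18, and AGAL2, an alpha-galactosidase, is taken up with the harvests.

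Of 4 cytosolic ribosomal members RPS13A was lower. It had 0.694, 4.16 and 4.90 scaled FPKM in terrestrial and 0.156, 0.944 and 0.818 in aquatic replicates, from 2 to 74 reads (log2 fold change -2.32 ± 0.27, SE, adjusted p = 0.00808). The levels overlapped across harvests through terrestrial replicate 1. The call was kept in 11 of 16 alternatives (adjusted p of 5.9e-06 to 0.288), and limma on log2(FPKM + 1) gave -1.27 (adjusted p = 0.0704). RPL5B, at 214 to 894 scaled FPKM, and the 2 transcripts matching PGY2, a large-subunit protein whose mutants have pointed leaves, gave -0.46, -0.24 and -0.53 and did not pass. Ribosomal proteins are encoded by near-identical gene copies, and fragments may be divided between them, so the single RPS13A value is uncertain.

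Members of chlorophyll and tetrapyrrole metabolism were 0 higher and 3 lower of 10 tested, and the lower ones stood at the start and at the end of the pathway. GSA2 is the match of an aminotransferase that makes 5-aminolevulinate, from which every tetrapyrrole is built. It had 663, 1367 and 2326 scaled FPKM in terrestrial and 98.5, 402 and 177 in aquatic replicates, without overlap, and fell by 2.70 (SE 0.39, adjusted p = 0.0139). GSA1, the match of the same step, had 604, 314 and 261 in terrestrial and 413, 495 and 507 in aquatic replicates and did not pass (log2 fold change 0.36 ± 0.32, SE, adjusted p = 0.528). GSA2 therefore made up 52.3, 81.3 and 89.9% of the scaled FPKM of the pair in the terrestrial libraries and 19.2, 44.8 and 25.9% in the aquatic ones.

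PORB reduces protochlorophyllide in light. It had 173, 153 and 117 scaled FPKM in terrestrial and 9.92, 22.8 and 25.4 in aquatic replicates, with a wide gap between the conditions, and fell by 3.02 (SE 0.39, adjusted p = 0.00999). PORC, of the same reaction, had 360.4, 517 and 390.5 in terrestrial and 124, 369 and 286 in aquatic replicates, where aquatic replicate 2 lay above terrestrial replicate 1 (log2 fold change -0.82 ± 0.29, SE, adjusted p = 0.135). PORB gave 22.9 to 32.5% of the pair in terrestrial and 5.81 to 8.14% in aquatic libraries.

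G4 is chlorophyll synthase, which adds the phytol tail. Transcript c51213_g1_i1 had 1.18, 7.14 and 9.04 scaled FPKM in terrestrial and 0.184, 2.73 and 2.47 in aquatic replicates and fell by 1.85 (SE 0.26, adjusted p = 0.0123), with terrestrial replicate 1 inside the aquatic range. The main G4 transcript, c50788_g1_i1, was far higher, at 68.7, 75.8 and 81.6 in terrestrial and 57.0, 61.0 and 65.2 in aquatic replicates. Its libraries did not overlap, and the log2 fold change of -0.30 ± 0.14 (SE, adjusted p = 0.236) did not pass. HEMC, CH1, PCB2 and ACD1, of porphyrin synthesis, chlorophyll b synthesis, vinyl reduction and chlorophyll breakdown, gave 0.25, 0.10, -0.34 and -0.05 (adjusted p from 0.206 to 0.932). LIL3:1 was not tested, with 0 to 109 reads.

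**Figure D3:**
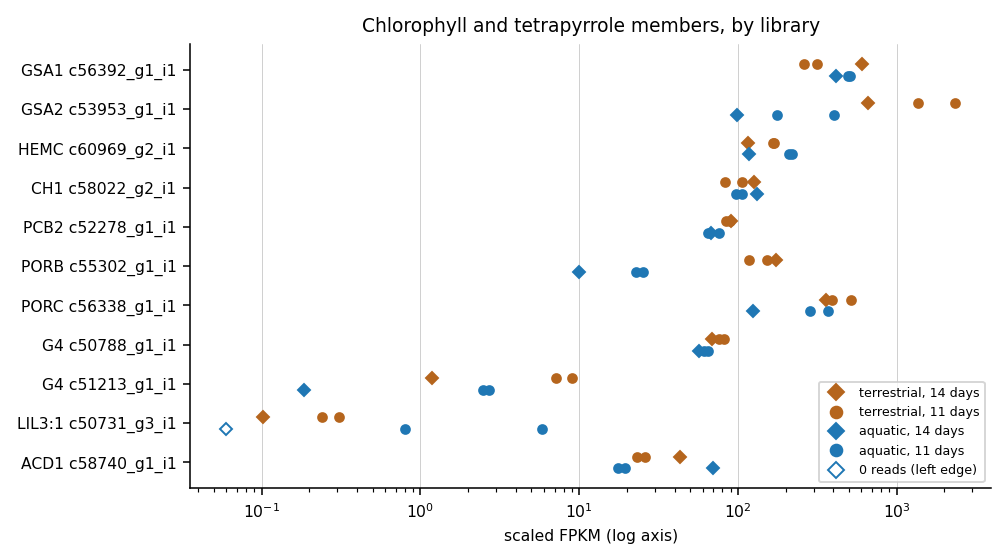
Scaled FPKM (log axis) of the 11 chlorophyll and tetrapyrrole members in each library, in the order of the pathway with chlorophyll breakdown (ACD1) last, diamonds for 14-day and circles for 11-day libraries. GSA2 and PORB have all aquatic points below all terrestrial ones, while GSA1, HEMC, CH1 and PORC overlap.

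In plastid isoprenoid and pigment synthesis none of 9 members passed the adjusted threshold. The largest value was that of a CLA1 transcript, the entry enzyme of the plastid isoprenoid pathway, with 26.5, 13.6 and 32.1 scaled FPKM in terrestrial and 102, 118 and 43.9 in aquatic replicates. Every aquatic library was above every terrestrial one (log2 fold change 1.87 ± 0.47, SE, adjusted p = 0.0609), whereas the 2 isoforms of the other CLA1 gene, at 60.6 to 80.9 scaled FPKM, gave 0.04 each. ISPF, of the same pathway, gave 0.66 (adjusted p = 0.183), with aquatic replicate 3 just inside the terrestrial range of scaled FPKM. LUT1, of lutein synthesis, gave -0.52 without overlap (adjusted p = 0.0721).

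Photosynthesis and plastid gene expression gave 0 higher and 4 lower of 35 members, by log2 fold changes of -1.0 to -0.69. PTAC6, of the plastid transcription machinery, had 43.3, 54.3 and 58.0 scaled FPKM in terrestrial and 27.8, 36.6 and 31.5 in aquatic replicates (log2 fold change -0.69 ± 0.14, SE, adjusted p = 0.0369). SRS, a seryl-tRNA synthetase, had 21.4, 22.5 and 19.8 in terrestrial and 10.3, 14.9 and 13.7 in aquatic replicates (-0.73 ± 0.17, SE, adjusted p = 0.0477). Neither overlapped between conditions. NDF5, needed for the NDH complex around photosystem I, had 26.0, 19.7 and 17.9 in terrestrial and 8.55, 12.5 and 10.6 in aquatic replicates for its called isoform (-1.0 ± 0.23, SE, adjusted p = 0.0463). NOA1, a GTPase of chloroplast ribosomes, had 16.3, 18 and 20.7 in terrestrial and 9.87, 13.4 and 10.9 in aquatic replicates for its called isoform (-0.69 ± 0.16, SE, adjusted p = 0.0454). Both were also without overlap. The sister isoforms of NDF5 and NOA1 gave -0.88 and -0.62 and did not pass (adjusted p = 0.0568 and 0.0581).

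These 4 calls depended on the libraries kept. With the replicate block the adjusted p was 0.0834 for PTAC6, 0.0933 for SRS, 0.0931 for NDF5 and 0.0956 for NOA1, and over the alternatives it ran from 0.00145 to 0.219, 0.00481 to 0.195, 0.00445 to 0.174 and 0.0067 to 0.211. SRS, NDF5 and NOA1 lost the call whichever library was left out, and PTAC6 lost its call without either 11-day library of each condition. Across the 35 members 27 had a negative value, with a median of -0.28, and 16 lay below within both harvests and 1 above. Of all transcripts tested 22.5% lay below in this way and 20.1% above, and of those with an *Arabidopsis* match 30.4% and 22.0%. Isoforms of the same Trinity gene are counted apart among the 35, such as 6 of the plastid sigma factor SIGF.

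The members of highest level belong to this group. PSBO2, of the oxygen-evolving complex, had 5747, 4649 and 3784 scaled FPKM in terrestrial and 4036, 4250 and 4178 in aquatic replicates. DRT112 (plastocyanin), FBA2 (plastid aldolase) and ATPC1 (gamma subunit of the chloroplast ATP synthase) had means of 2547 ± 526, 2000 ± 369 and 1054 ± 317 in terrestrial and 2548 ± 375, 1455 ± 189 and 1012 ± 28.1 in aquatic plants (SD, n = 3). None of these 4 passed, with log2 fold changes of -0.17, 0.01, -0.45 and -0.02. With GSA2 they held 61.5 to 68.5% of the scaled FPKM of all members in a library. RBCS1A, the single measured marker of leaf photosynthesis out of 5, was lower in aquatic plants (log2 fold change -1.44, adjusted p = 0.0335 per homolog, 0.0878 with the replicate block).

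Of the 11 members with no role used here, none passed the adjusted threshold and 10 had a negative value (-0.90 to 0.00). CRB, the most abundant of them, had 602 ± 92.7 scaled FPKM in terrestrial and 416 ± 58.2 in aquatic plants (SD, n = 3), with -0.54 on the log2 scale (adjusted p = 0.173). Its name and locus (AT1G03880) come from the leaf sheet alone, with no description to check them, so its identity is uncertain.

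The second contrast of the labels is between harvests, over both conditions. Of the 140 members, 10 were higher and 26 lower in the 14-day leaf than in the 11-day leaf with apex, against 7.27% and 9.73% of all transcripts tested and 7.21% and 15.2% of those with an *Arabidopsis* match (members 7.14% and 18.6%). By role, 0 rose and 5 fell of 28 transcription factors, 0 and 6 of 16 members of chromatin, RNA and genome, 2 and 2 of 9 of cell shape, 1 and 3 of 10 of cell division, 1 and 1 of 8 of the wall, and 0 and 3 of 4 of the ribosome. In the wall group SSL4 rose and CSLD5 fell. The plastid members gave 4 higher and 6 lower of 54, and the members given no role 2 and 0 of 11. The genes named for this contrast were picked after their values were seen.

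CSLD5 fell by 7.28 on the log2 scale (SE 0.32, adjusted p = 0.00205), from 888 to 2392 reads in each 11-day library to 4 and 18 in the 14-day ones. PRS, with 0 reads at 14 days and 19 to 23 reads in each 11-day library, was at least 5.87-fold lower in the 14-day leaf, counting 3 reads per library as the floor. Among ribosomal members, RPL5B fell from 563 to 894 scaled FPKM in the 11-day to 214 and 262 in the 14-day libraries (-1.58 ± 0.19, SE, adjusted p = 0.00745), and a PGY2 transcript fell by 1.82 (adjusted p = 0.00511) and RPS13A gave -2.66 (adjusted p = 0.00748).

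All 3 CLF isoforms fell, by 0.79 to 1.23, as did 3 AGO4 transcripts, by 0.88 to 2.43. AN fell by 1.08 (adjusted p = 0.0128), both EDE1 isoforms, of a microtubule-binding protein, by 1.95 and 2.51, and the TCP15 pair of c54414_g1 by 1.36 and 1.33. Over 7 alternatives the 3 CLF calls were kept in 2, 5 and 2, that of AGO4 c62087_g1_i1 in 2, that of AN in 5, those of EDE1 in 3 and 2, and that of TCP15 c54414_g1_i2 in 2. The G4 transcript c51213_g1_i1 fell by 3.13 (adjusted p = 0.00511), while the main G4 transcript did not pass (-0.18). On the other side ACD1, which opens the chlorophyll ring in ageing leaves, rose by 1.39 (adjusted p = 0.0224), ROT3 by 0.81 (adjusted p = 0.0361) and both isoforms of APE1, of photosynthetic acclimation, by 0.92 and 0.96. ACD1 and ROT3 were each called in 2 of 7 alternatives (adjusted p of up to 0.0783 and 0.181), and the APE1 isoforms in 3 and 2 (up to 0.112 and 0.137).

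**Figure D4:**
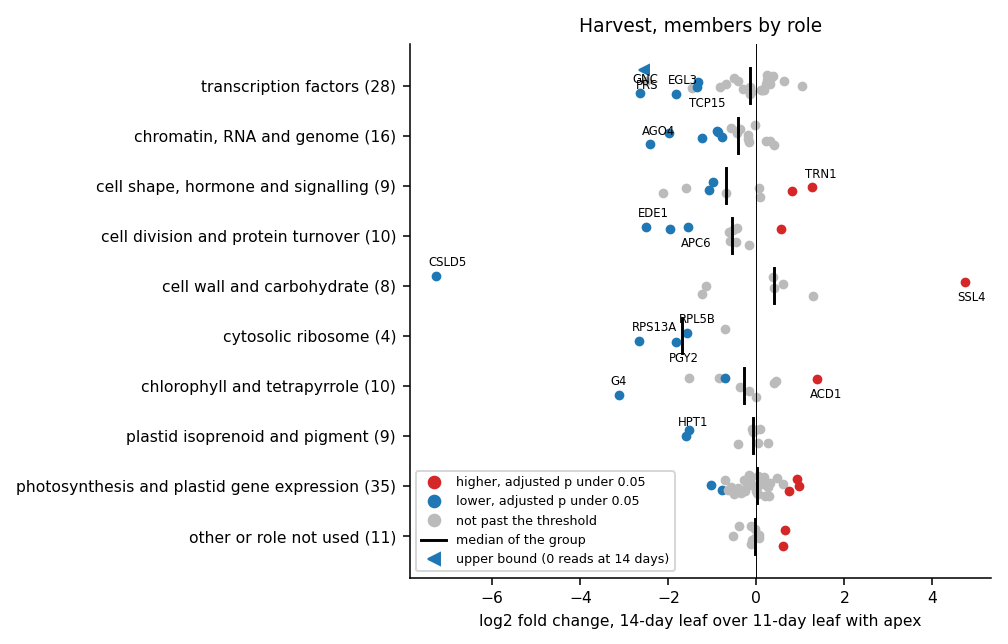
Log2 fold change of the 14-day leaf over the 11-day leaf with apex for the 140 members tested, by role, coloured by the test, with a bar at the group median and PRS drawn as a triangle at the bound set by 3 reads. All 4 ribosomal members lie below 0, and CSLD5 lies at -7.28.

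At 14 days there is a single library for each condition. The error of this contrast comes from the spread of the 11-day libraries and from differences of the aquatic effect between the harvests. Without terrestrial replicate 2 there were 1 higher and 17 lower members (2.55% and 4.46% of all transcripts), and without terrestrial replicate 3 there were 1 and 12 (1.76% and 3.31%). Without aquatic replicate 2 there were 0 higher (12 at an unadjusted p under 0.05) and 16 lower (3.33% and 4.84% of all), and without aquatic replicate 3 there were 2 and 18 (3.96% and 6.59%). CSLD5, PRS, RPL5B, RPS13A, the G4 transcript, the PGY2 transcript, 2 HPT1 isoforms, 1 TCP15 and 2 AGO4 transcripts were called in all 7 alternatives. Of the 22 members called between conditions, 7 also fell at 14 days and 1, the SSL4 transcript of aquatic replicate 1, also rose.

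Whether the aquatic effect differed between harvests was tested as an interaction. Age, tissue and time under water change together between the harvests, so a difference cannot be assigned to any of them. No member had a larger aquatic over terrestrial ratio at 14 days (0.374% of all transcripts did), 5 did at an unadjusted p under 0.05 and 1 by DESeq2, and 3 had a smaller ratio (1.77% of all). For FMA the log2 ratio of CPM (0.5 added) was -5.58 at 14 days and -3.11 at 11 days, and the fitted difference was -4.61 ± 0.57 (SE, adjusted p = 0.0176). The 14-day ratio rests on 2 reads in aquatic replicate 1.

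ALE2, a receptor-like kinase of the embryo and leaf epidermis, had 4.59, 10.0 and 10.0 scaled FPKM in terrestrial and 0.695, 8.73 and 7.57 in aquatic replicates. The 11-day libraries of the conditions were close and the 14-day ones were far apart (difference -2.42 ± 0.31, SE, adjusted p = 0.0200). AGAL2 had 6.01, 7.22 and 4.77 in terrestrial and 1.72, 12.2 and 16.4 in aquatic replicates for isoform c53467_g1_i2. It was lower in aquatic plants at 14 days and higher at 11 days (difference -3.06 ± 0.48, SE, adjusted p = 0.0368). Each of these 3 differences rests on aquatic replicate 1, the library with 36.2% of its counts in 3 transcripts, and a separate spread for the 14-day harvest could not be had.

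**Figure D5:**
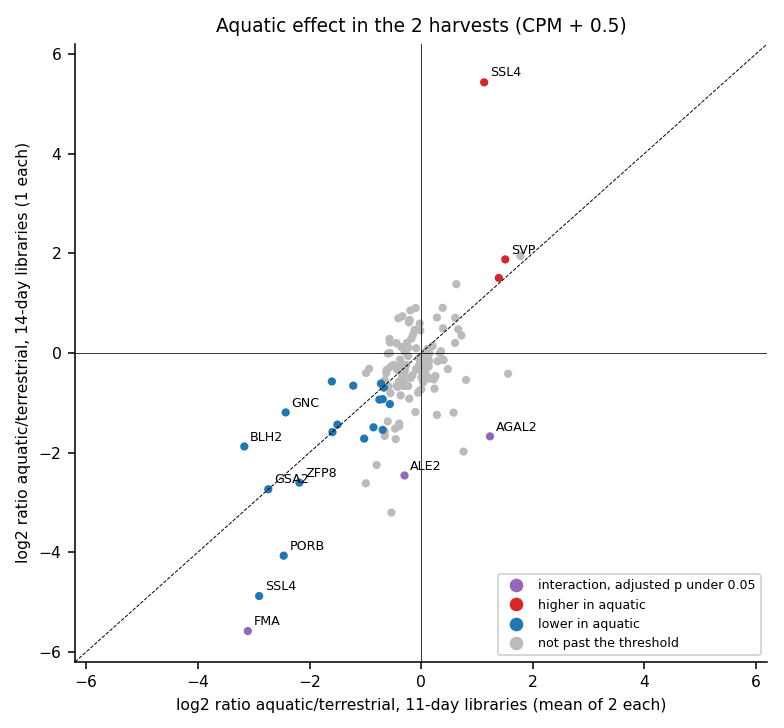
Log2 ratio of aquatic over terrestrial CPM (0.5 added) for the 140 members tested, the 14-day pair against the mean of the 11-day libraries, with the line of equal ratios dashed. FMA, ALE2 and AGAL2 (purple) lie below that line, the SSL4 transcript of aquatic replicate 1 lies far above it, and SVP, ZFP8 and GSA2 lie near it. The added 0.5 draws in ratios of low values such as FMA.

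Other regulators of leaf form were read per homolog from a list of 52 *Arabidopsis* genes, of which 20 were tested, 0 higher and 5 lower (9.60% and 6.78% of all homologs), with a median of -0.35 against -0.02 over all homologs. Of the 20, 1 was higher at an unadjusted p under 0.05, and AN, ROT3, BLH2 and PRS are members. AS1, a MYB factor that keeps KNOX genes off in the leaf, had 11.9, 104.7 and 102 CPM in terrestrial and 4.23, 45.9 and 52.3 CPM in aquatic replicates and fell by 1.20 (SE 0.13, adjusted p = 0.0129). CYCD3;1, a cyclin of dividing leaf cells, fell by 2.26 (adjusted p = 0.0245), BB, a ubiquitin ligase that limits organ size, by 1.32 (adjusted p = 0.0416) and PPD2, which limits the division of meristemoids, by 0.55 (adjusted p = 0.0438).

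With the replicate block the adjusted p was 0.0423 for AS1, 0.0457 for BLH2, 0.0755 for CYCD3;1, 0.0998 for BB and 0.0959 for PPD2. Over 12 alternatives the ranges were 2.1e-10 to 0.660, 7.0e-09 to 0.262, 1.2e-07 to 0.582, 0.000467 to 0.187 and 0.000931 to 0.216. The count of lower genes in the list was 0 with terrestrial replicate 2, terrestrial replicate 3 or aquatic replicate 2 left out, 2 with aquatic replicate 3 left out, and 4 with either 14-day library left out. Of all homologs 0.474%, 0.183%, 0.00% and 1.88% were lower in the first 4 of these fits. Without terrestrial or aquatic replicate 1 these shares were 8.53% and 9.20%. Where hardly any homolog was called, a count of 0 says nothing particular about the list. The KNOX homologs KNAT1, KNAT2 and STM gave 0.92, 0.32 and 0.40 (adjusted p = 0.0883, 0.273 and 0.492) with 0 or 1 read in each 14-day library. Of 10 genes of actin nucleation and cell shape 6 were tested and none passed (-0.74 to -0.06, none at an unadjusted p under 0.05), and of 7 trichome genes EGL3 alone of 3 tested was lower (adjusted p = 0.0192, 0.0506 with the replicate block and 4.9e-07 to 0.305 over 12 alternatives).

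Counts were also summed over larger units. Per homolog 1 was higher and 15 lower of 84 tested, where 9.60% and 6.78% of all homologs were. With the replicate block these were 0 (5 at an unadjusted p under 0.05) and 2, where 4.01% and 1.45% of all homologs were called. No lower homolog was left without terrestrial replicate 2 (20 at an unadjusted p under 0.05), terrestrial replicate 3 (23) or aquatic replicate 2 (22), and no higher one without these (4, 2 and 4) or without aquatic replicate 3 (5), where 5 were lower. Of all homologs 1.45% were then higher and 0.474% lower with terrestrial replicate 2 left out, 0.645% and 0.183% with terrestrial replicate 3, 0.00% in both directions with aquatic replicate 2, and 5.41% and 1.88% with aquatic replicate 3. Without terrestrial replicate 1 there were 2 and 16 (10.2% and 8.53% of all), and without aquatic replicate 1 there were 1 and 16 (10.6% and 9.20%).

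Per Trinity gene 2 were higher and 19 lower of 105 tested, where 6.90% and 5.09% of all Trinity genes were. With the replicate block there were 2 and 8 (3.83% and 1.75% of all). Leaving out terrestrial replicate 1, 2 or 3 gave 4 and 14 (6.91% and 4.74%), 1 and 10 (2.53% and 1.20%) and 1 and 3 (1.30% and 0.469%). Leaving out aquatic replicate 1, 2 or 3 gave 4 and 14 (7.15% and 4.94%), 1 and 2 (1.12% and 0.389%) and 1 and 10 (5.01% and 1.94%). Of 25 Trinity genes with several members tested, 21 had log2 fold changes of a single sign, among them the 3 isoforms of CLF, the 6 of SIGF, a plastid sigma factor, and the 3 of HPT1, of tocopherol synthesis. The isoforms of AGAL2, AT5G07020, VCS and GSL05 had both signs. The largest spread within a Trinity gene was 1.30 on the log2 scale, in SVP. SSL4 was the only match with a member called in each direction.

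By the kind of evidence behind the GO term, members placed by mutant or genetic evidence gave 0 higher (at the adjusted threshold) and 4 lower of 30 tested, with a median log2 fold change of -0.09. Those placed by computation alone gave 1 higher and 14 lower of 83, with a median of -0.30. The 27 for which the term was not given, SVP and FMA among them, gave 2 higher and 1 lower, with a median of -0.24. Over all transcripts tested 6.42% were higher and 4.04% lower. The 4 lower members with mutant or genetic evidence were BLH2, both CLF isoforms and RPS13A. A difference between these classes was not tested.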

How the data were processed

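RNA from 3 terrestrial and 3 aquatic shoot libraries was sequenced. Per the study's methods the authors assembled the reads with Trinity, and their notes name TopHat and Cufflinks, with versions not given in the sources used here. The deposited library tables hold expected counts and FPKM per assembled transcript, as the authors made them from their reads. No label or method names the program behind the expected counts, all of which were whole. The deposited annotation table gives the percent identity to the best protein match, as the authors computed it. Its 6 other FPKM columns, and the FPKM sums per condition in the leaf sheets, were not used.

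Counts were tested with edgeR 4.0.16 (R 4.3.3): TMM scaling, a minimum count of 10 (filterByExpr), the quasi-likelihood test with harvest and condition as terms, and Benjamini-Hochberg adjustment over all transcripts tested. SE is the fold change divided by the root of F. Tests were repeated per homolog and per Trinity gene. Alternatives were DESeq2 1.42.0, limma 3.58.1 on log2(FPKM + 1) or log2(FPKM + 0.1), other scalings, no minimum, no harvest term, the 11-day libraries alone, a replicate block and each library left out. For aquatic against terrestrial plants, leaving out either replicate 1 gives nearly the same comparison as the 11-day libraries alone. Library totals were 25345718 to 33978729, so that low members rest on few reads.

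Replicate numbers were used as pairs only in the replicate block, and the main fit used harvest instead. Deviations of same-numbered libraries from their group means correlated at 0.61, 0.46 and 0.41 for replicates 1, 2 and 3. Harvest was not removed from these deviations, so libraries of the same harvest can correlate through it. Replicate 1 is a harvest of its own. Terrestrial 3 correlated at 0.42 with aquatic 2 and at 0.41 with aquatic 3. The correlations therefore cannot show whether replicates 2 and 3, which share a harvest, are pairs.

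Named members were those past the threshold (all, as under 30 passed), the 5 of highest mean FPKM, those whose aquatic effect differed between harvests, those in the lists of leaf form, actin and trichome genes, and transcripts of the same match or Trinity gene called in the opposite direction. From each list up to 4 other genes of lowest adjusted p were named. Other names were chosen after their values were seen. The members and lists were chosen with earlier results of these data known.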

Additional observations from a re-analysis of the deposited data

Results flagged for a closer look

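The aquatic effect differed between the 14-day and the 11-day harvest for 3 members, by the interaction term of edgeR's quasi-likelihood test. The log2 difference was -4.61 for FMA (adjusted p = 0.0176), -2.42 for the ALE2 transcript c62645_g2_i1 (adjusted p = 0.0200) and -3.06 for the AGAL2 transcript c53467_g1_i2 (adjusted p = 0.0368). With RLE scaling the adjusted p was 0.0187, 0.0226 and 0.0366, and with DESeq2 it was 0.00364, 0.000177 and 8.7e-05. The 14-day harvest has 1 library in each condition, so the part of aquatic replicate 1 in these values was not tested. With 3 libraries in a group, single libraries that stand apart were not searched for.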

How the results depend on the processing

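Of the single results under the alternatives, 374 kept their side of the threshold, 137 kept their direction but no longer passed, and 7 came to pass. Among the 374 were values that changed sign without passing, such as DRT112 (-0.18 to 0.27) and ATPC1 (-0.19 to 0.25). None changed sign with an adjusted p under 0.05 in the main fit or in the alternative. With DESeq2 the members called per transcript were 6 higher and 30 lower, per homolog 5 and 27, per Trinity gene 5 and 32, and for the difference between harvests 1 and 8. DESeq2 also called more of all features, 9.16% higher and 7.59% lower per transcript. It called 1374 and 1313 of 8156 homologs and 3567 and 3472 of 31341 Trinity genes. For the difference between harvests it called 444 and 1570 of 58039 transcripts. Without a minimum count there were 7 lower per transcript (limma without an FPKM minimum, 1 higher and 3 lower), 1 higher and 12 lower per Trinity gene, and 1 higher and 12 lower between harvests. Of all 201067 transcripts 1284 were then higher and 542 lower (limma, 708 and 456), and 828 and 2148 between harvests. Of all 141126 Trinity genes 1573 were higher and 848 lower. With no harvest term there were 3 lower per transcript, 0 and 0 per homolog, and 0 and 3 per Trinity gene. Few of all features were called in that fit, 746 higher and 294 lower of 58039 transcripts. Per homolog these were 25 and 9 of 8156, and per Trinity gene 394 and 180 of 31341. The replicate block gave 9 lower per transcript, 0 higher and 2 lower per homolog, 8 lower per Trinity gene, 2 lower among leaf form regulators and 0 lower among trichome genes, and the other calls it ended are given beside their results. The 11-day libraries alone gave 8 higher per transcript (6.92% of all) and 5 higher per Trinity gene (2368 of all 31638). Leaving out 1 library gave 1 to 8 higher and 4 to 15 lower per transcript, 0 to 2 and 0 to 16 per homolog, 1 to 4 and 2 to 14 per Trinity gene, and 0 to 2 and 12 to 18 between harvests. It gave 0 to 4 lower leaf form regulators and 0 to 1 lower trichome genes, where 0.00 to 9.20% of all homologs were lower. The cause of these moves was not tested, except that fewer libraries or more features enter some fits. GNC rests on 0 to 99 reads and RPS13A on 2 to 74 reads a library.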
